A study of Mus musculus with 7 samples.

Results

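Zinc enters the cytosol through the SLC39 (ZIP) carriers, leaves it through the SLC30 (ZnT) carriers, and is buffered there by metallothioneins, small proteins whose many cysteines bind zinc, copper and cadmium. The transcription factor MTF1 senses free zinc and switches on the metallothionein genes and Slc30a1 through metal response elements in their promoters. Zinc has known uses in enamel formation, since the enamel protease Mmp20 and alkaline phosphatases are zinc enzymes.

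The 10 genes described here were Mt1, Mt2, Mtf1, Slc30a1, Slc30a5, Slc39a2, Slc39a4, Slc39a8, Slc39a10 and Slc39a14, of 25700 genes in the deposited counts. They were chosen by name with earlier results of the same libraries known, so their genotype differences are given as a description, without a test. RNA sequencing had been done on the dental epithelium of lower incisors from newborn (PN0) pups, from its posterior part, to ask how loss of Nogo-A alters its transcriptome. The 4 K14;Nogo-A libraries (replicates 1, 2, 7 and 10) came from pups with 1 K14cre allele and both Nogo-A alleles floxed, written K14cre cre/+; Nogo-A fl/fl. The 3 wild-type libraries (replicates 3, 8 and 9) came from pups labelled wild type, which the study describes as littermates, and 1 further control was not analysed here. Each library held the left and right incisors of 1 pup, so the pup was the replicate, and the sexes of the pups were not given in the labels. K14-cre acts in epithelial cells and leaves Nogo-A intact in any mesenchyme that came along. No library held Cre without the floxed alleles.

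The 4 K14;Nogo-A libraries held 20929207 to 29728532 counts and the 3 wild-type libraries 21021158 to 41219439. Values are given as CPM, that is counts scaled to a common library size. Rtn4, the gene of Nogo-A, had 297, 344, 328 and 340 CPM in K14;Nogo-A, against 281, 277 and 346 CPM in wild-type. These counts sum all isoforms and do not check the deletion, which removes the Nogo-A form alone. Epithelial RNA was present, with summed CPM of 9 epithelial markers such as Krt14 and Cdh1 of 7192 to 8464 in K14;Nogo-A, against 5326 to 8478 in wild-type. Mesenchymal RNA was present too, with a summed level of 15 markers of 11465 to 33391 CPM in K14;Nogo-A, against 26844 to 41607 CPM in wild-type. The mesenchymal sum exceeded that of the 9 epithelial markers in every library, so the sums do not show how pure the epithelium was. Col1a1 made up most of the mesenchymal sum, at 6192 to 23012 CPM in K14;Nogo-A, against 15656 to 28134 CPM in wild-type. Ameloblasts are also epithelial, and their 10 markers were listed apart. These summed to 37704 to 107014 CPM in K14;Nogo-A, against 17324 to 47507 CPM in wild-type. In such bulk RNA, fewer cells of a type and less RNA per cell cannot be told apart.

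Mt1 and Mt2, the widely expressed metallothioneins, are neighbours on mouse chromosome 8 of GRCm38, with Mt2 at 94172664 to 94173568 and Mt1 at 94179082 to 94180327, both on the plus strand (all positions given are on GRCm38). The end of Mt2 lies 5513 bp before the start of Mt1. Their coding sequences are 186 bp each, with 20 cysteine codons among 61 in either gene. They are identical at 79.6% of coding positions, but the longest run shared by their transcripts is 20 bp, far under the length of a read, so few reads could be split between them. The promoters of both genes are printed because these are the classic targets of MTF1 and because both genes were higher in K14;Nogo-A. They come from RefSeq (GRCm38.p6), run 5′ to 3′ from 250 bases before to 50 bases after the RefSeq start site, and lie at chr8:94178839-94179138 (plus strand) for Mt1 and chr8:94172368-94172667 (plus strand) for Mt2. Capitals mark the core letters of the metal response element, TGCACNC or TGCGCNC on either strand.
Mt1: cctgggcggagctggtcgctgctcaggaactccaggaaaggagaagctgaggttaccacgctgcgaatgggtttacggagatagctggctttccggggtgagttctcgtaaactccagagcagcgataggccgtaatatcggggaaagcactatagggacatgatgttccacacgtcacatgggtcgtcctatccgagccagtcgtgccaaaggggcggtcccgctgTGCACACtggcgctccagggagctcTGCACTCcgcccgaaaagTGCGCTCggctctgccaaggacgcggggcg
Mt2: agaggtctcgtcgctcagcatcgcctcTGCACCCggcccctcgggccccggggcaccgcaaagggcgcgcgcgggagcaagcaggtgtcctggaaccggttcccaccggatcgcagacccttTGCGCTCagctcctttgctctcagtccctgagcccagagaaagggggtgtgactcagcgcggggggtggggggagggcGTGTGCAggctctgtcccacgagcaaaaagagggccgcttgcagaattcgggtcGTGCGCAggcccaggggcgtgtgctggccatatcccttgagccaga

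The Mt1 window held 3 cores and the Mt2 window 4. Among 32851 RefSeq promoters of the same length, 25.7% held at least 1 core, 1.97% at least 3 and 0.517% at least 4. The Mt2 transcripts of GENCODE begin 46 and 242 bases after the RefSeq start. The Mt1 window is tied to the most upstream start, since the GENCODE transcripts of Mt1 begin 7 bases before it and 122 and 152 bases after it. The bases just ahead of the Mt1 starts at 122 and 152 and of the Mt2 start at 242 are therefore outside the printed windows. Of the other 8 genes, Slc30a1 had 2 cores, Slc30a5 had 1, and 1 of 2 promoters of Slc39a8 had 1. Mtf1, Slc39a2 and both promoters of Slc39a10 had none of these letters, and no entry was matched for Slc39a4 and Slc39a14. A match to the letters is a description and does not show binding.

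The metallothioneins were higher in K14;Nogo-A pups, by about the same factor. Mt1 had 28.2, 26.7, 29.3 and 26.2 CPM in K14;Nogo-A, against 19.5, 20.7 and 21.8 CPM in wild-type. Every K14;Nogo-A pup was above every wild-type pup. The means were 27.6 ± 1.42 CPM in K14;Nogo-A (SD, n = 4), against 20.6 ± 1.15 CPM in wild-type (SD, n = 3), a log2 fold change of 0.42 (standard error 0.10), 1.34-fold. Mt2 had 14.4, 16.1, 13.4 and 13.9 CPM in K14;Nogo-A, against 10.9, 12.4 and 10.1 CPM in wild-type. The genotypes again did not overlap, and wild-type replicate 8 came closest to the K14;Nogo-A libraries. The log2 fold change of Mt2 was 0.37 (standard error 0.13), 1.29-fold. An antisense transcript, Gm45774, overlaps Mt2 exons over 432 bp, and without a stated strand setting its reads could not be told apart from those of Mt2.

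Both genes together made the pattern tighter. Their summed level was 42.6, 42.7, 42.7 and 40.1 CPM in K14;Nogo-A, against 30.4, 33.1 and 31.9 CPM in wild-type. The sum thus varied little within a genotype, with means of 42.0 ± 1.29 CPM in K14;Nogo-A (SD, n = 4), against 31.8 ± 1.38 CPM in wild-type (SD, n = 3). The balance of the pair was about the same, at 0.525 ± 0.0606 Mt2 counts per Mt1 count in K14;Nogo-A, against 0.542 ± 0.0688 in wild-type. Within the libraries with Y-linked RNA (K14;Nogo-A replicate 1 against wild-type 3 and 8), Mt1 was 0.49 and Mt2 0.30 higher in K14;Nogo-A on the log2 scale. Within those without it (K14;Nogo-A 2, 7 and 10 against wild-type 9), Mt1 was 0.33 and Mt2 0.51 higher. Neither comparison has replicates on both sides.

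The makeup of the libraries was set beside the metallothionein levels. K14;Nogo-A replicate 1 had a summed metallothionein level of 42.6 CPM with an ameloblast marker sum of 37704 CPM, and wild-type replicate 9 had 31.9 CPM with a larger ameloblast sum of 47507 CPM. The other K14;Nogo-A libraries had 40.1 to 42.7 CPM with ameloblast sums of 83933 to 107014 CPM. Wild-type replicate 3 had 30.4 CPM with 38518 CPM, and wild-type replicate 8 had 33.1 CPM with 17324 CPM. Endothelial RNA did move with genotype, with a summed level of 6 markers of 117 to 196 CPM in K14;Nogo-A, against 203 to 230 CPM in wild-type, and 4 of the 6 were lower at the study's thresholds. Of the 15 mesenchymal markers 4 passed as lower too, with a median of -0.57 on the log2 scale over the list. Over all genes tested, 406 (2.74%) of 14791 passed as lower. The part of ameloblasts and endothelium in the metallothionein difference was not tested. With the mesenchymal markers as a covariate the log2 fold change of Mt1 was 0.40, and that of Mt2 was lower, at 0.24 against 0.37 without it. No standard error is given for these covariate fits, and the covariate list was itself lower in K14;Nogo-A at its median.

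Metallothionein genes also answer to glucocorticoids and oxidative stress, so targets of both were read in the same libraries. Of 9 tested glucocorticoid response genes such as Fkbp5 and Per1, 0 passed the study's thresholds in either direction (median log2 fold change -0.03), with summed levels of 919 to 1079 CPM in K14;Nogo-A, against 725 to 1058 CPM in wild-type. Of 8 NRF2 target genes such as Nqo1 and Hmox1, 0 passed in either direction (median -0.09), with sums of 302 to 323 CPM in K14;Nogo-A, against 309 to 326 CPM in wild-type. The summed levels of both lists overlapped between the genotypes. Cdkn1a alone made up most of the glucocorticoid sum, at 668 to 880 CPM in K14;Nogo-A, against 489 to 810 CPM in wild-type. That sum therefore says little of the other genes in the list. Over all genes 2.02% passed as higher and 2.74% as lower, so a count of 0 in lists this short is near the background and says little of either stimulus. Mtf1 itself did not separate the genotypes. It had 16.1, 18.1, 13.0 and 14.1 CPM in K14;Nogo-A, against 17.6, 14.03 and 17.0 CPM in wild-type, a log2 fold change of -0.08 (standard error 0.14), and the genotypes overlapped throughout. Mtf1 (chromosome 4, 124802104 to 124849800) shares 721 bp of exon with 1110065P20Rik on the other strand.

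**Figure D1:**
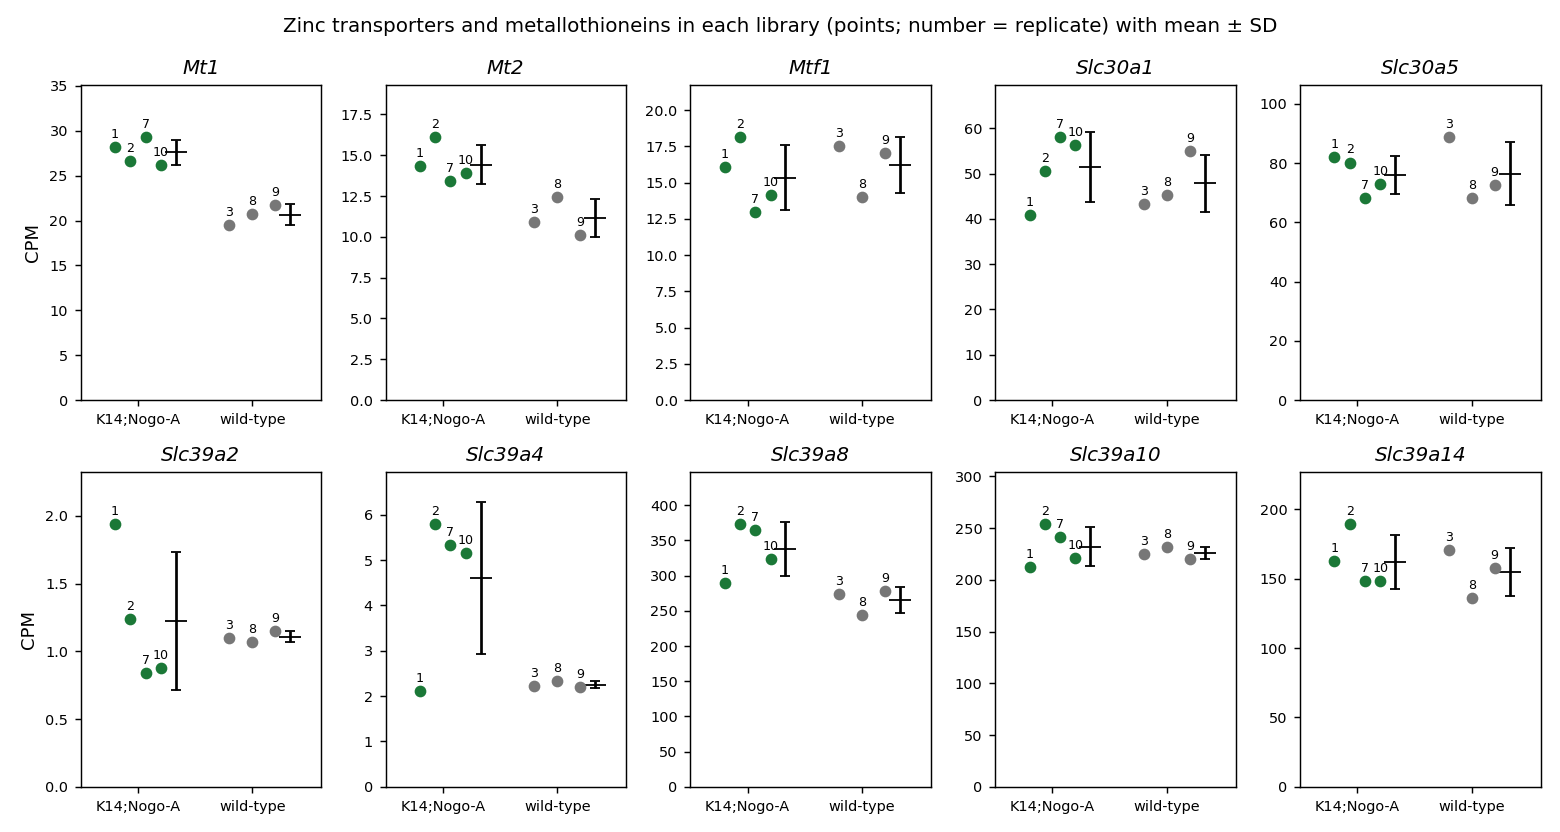
CPM of the 10 zinc genes (1 panel each, y axis from 0) in the 4 K14;Nogo-A libraries (green, left) and the 3 wild-type libraries (grey, right); numbers beside points are replicates and bars are mean ± SD. Mt1, Mt2 and Slc39a8 show no overlap between the genotypes, and K14;Nogo-A replicate 1 has Slc39a4 at the wild-type level (2.12 CPM).

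Among the importers, Slc39a8 and Slc39a4 were higher in K14;Nogo-A. Slc39a8 encodes ZIP8, a plasma membrane carrier of zinc and manganese that also takes in cadmium (chromosome 3, 135825279 to 135888572). It had 289, 373, 365 and 323 CPM in K14;Nogo-A, against 274, 244 and 278 CPM in wild-type. The genotypes did not overlap, but K14;Nogo-A replicate 1 stood only a little above wild-type replicates 3 and 9. The means were 338 ± 38.9 CPM in K14;Nogo-A (SD, n = 4), against 265 ± 18.8 CPM in wild-type (SD, n = 3), with a log2 fold change of 0.35 (standard error 0.11), 1.27-fold. With the mean of the mesenchymal markers as a covariate, the log2 fold change of Slc39a8 turned to -0.33, a point value without a standard error. The cause was not tested.

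Slc39a4 encodes ZIP4, the zinc importer of the gut whose loss causes acrodermatitis enteropathica in humans (chromosome 15, 76612383 to 76617384). It was a low gene here, with 46, 131, 153 and 135 counts in K14;Nogo-A, against 93, 96 and 46 counts in wild-type. In CPM these were 2.12, 5.79, 5.34 and 5.15 in K14;Nogo-A, against 2.22, 2.34 and 2.21 in wild-type. Replicates 2, 7 and 10 stood far above the wild-type libraries, whereas replicate 1 was below all of them. Its exact 95% Poisson interval, 1.55 to 2.83 CPM, took in the wild-type values, and that of replicate 10, the lowest of the other 3, began at 4.32 CPM. These intervals cover counting error only. The log2 fold change was 1.03 (standard error 0.30), 2.04-fold, and 1.26 without replicate 1, so the mean covers 2 levels among the mutant pups. With the mesenchymal markers as a covariate it turned to -0.93, with a Y-linked covariate it was 0.65, and the cause was not tested. Both are point values without a standard error.

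The same split was seen in the enamel matrix genes Amelx, Ambn and Enam. Ambn, which encodes the enamel matrix protein ameloblastin, had 2133, 18590, 21029 and 10620 CPM in K14;Nogo-A, against 2751, 1408 and 2687 CPM in wild-type. The summed level of 10 ameloblast markers was 37704, 107014, 104798 and 83933 CPM in K14;Nogo-A, against 38518, 17324 and 47507 CPM in wild-type. Amelx made up most of this sum, at 26648, 72659, 72480 and 60391 CPM in K14;Nogo-A, against 25283, 10444 and 33878 CPM in wild-type. Slc39a4 was thus high in the libraries with a high marker sum, and replicate 1 was low in both. Dlx3 of the same list had 467, 415, 356 and 386 CPM in K14;Nogo-A, against 498, 412 and 442 CPM in wild-type. Sp6, Odam and Dspp did not follow the sum either. Within wild-type, however, replicate 8 had by far the lowest ameloblast sum and a Slc39a4 level no lower than the other 2. The part of the ameloblast share in the Slc39a4 difference was not tested. Replicate 1 was also the one K14;Nogo-A library with Y-linked RNA, with a summed level of 189 CPM for 4 Y-linked genes against at most 0.309 CPM in the other 3. Within the libraries with Y-linked RNA the log2 difference of Slc39a4 was -0.10, and within those without it 1.29. The same library had the highest mesenchymal marker sum of its genotype, 33391 CPM against 11465 to 20134 CPM in the other 3, and the highest osteoblast and odontoblast sum, 2386 CPM against 1199 to 1616 CPM. Its skeletal muscle sum was the lowest, at 6.74 CPM against 21.6 to 27.0 CPM. All of these differences fell in 1 library, so their shares in its low Slc39a4 value cannot be told apart.

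**Figure D2:**
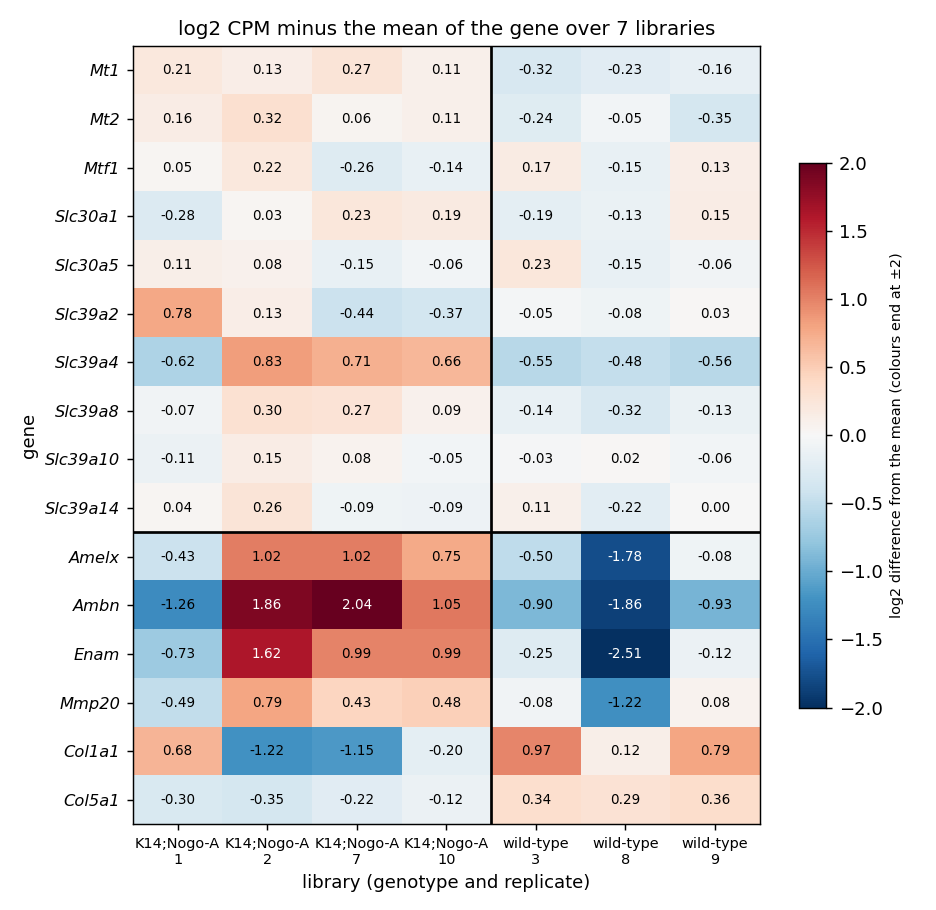
log2 CPM of each gene minus its mean over the 7 libraries, for the 10 zinc genes (above the line), 4 enamel genes and 2 collagen genes (below it), with K14;Nogo-A libraries left and wild-type libraries right of the line. Slc39a4 of K14;Nogo-A pups is at -0.62 in replicate 1, but at 0.83 in replicate 2, 0.71 in replicate 7 and 0.66 in replicate 10, whereas Mt1 is above its mean in all 4 K14;Nogo-A libraries and below it in all 3 wild-type libraries.

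The patterns closest to these were looked up among 13260 genes with a mean of at least 1 CPM, by the root mean square difference of log2 CPM centred on each gene's mean over the 7 libraries. Among those closest to Slc39a4 were Plpp1 (0.177), a lipid phosphatase, and Entpd3 (0.188), an ectonucleotidase. Closest to Mt1 were Chchd7 (0.0482), Arl2 (0.0587), which encodes a small GTPase, and Mri1 (0.0589), an enzyme of methionine salvage. Closest to Slc39a2 were Zfp595 (0.121), Lrif1 (0.122) and Slc25a14 (0.125). With 7 libraries, many genes lie near any given pattern.

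Slc39a2, which encodes the plasma membrane importer ZIP2, was the lowest of the 10 genes (chromosome 14, 51892889 to 51896745). It had 1.94, 1.24, 0.837 and 0.877 CPM in K14;Nogo-A, against 1.10, 1.07 and 1.15 CPM in wild-type, from 23 to 42 counts in K14;Nogo-A, against 24 to 46 counts in wild-type. Replicate 1, low for Slc39a4, was the highest for Slc39a2, with an exact Poisson interval of 1.40 to 2.62 CPM against 0.536 to 1.25 CPM in replicate 7. The log2 fold change was 0.13 (standard error 0.33), and the genotypes overlapped. Slc39a2 shares 151 bp of exon with Mettl17 on the same strand.

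The other 2 importers were abundant and close to level. Slc39a10, which encodes the plasma membrane importer ZIP10 (chromosome 1, 46807544 to 46892852), had 212, 254, 242 and 221 CPM in K14;Nogo-A, against 225, 232 and 220 CPM in wild-type. Its log2 fold change was 0.04 (standard error 0.09). Slc39a14, which encodes ZIP14, a carrier of zinc, manganese and iron (chromosome 14, 70303469 to 70351425), had 163, 189, 149 and 148 CPM in K14;Nogo-A, against 170, 136 and 158 CPM in wild-type, with a log2 fold change of 0.07 (standard error 0.11). For both genes the wild-type values fell inside or beside the K14;Nogo-A range.

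The exporters did not separate the genotypes either. Slc30a1 encodes ZnT1, which exports zinc across the plasma membrane, and is a target of MTF1 like the metallothioneins (chromosome 1, 191906767 to 191913247). It had 40.8, 50.7, 58.0 and 56.3 CPM in K14;Nogo-A, against 43.2, 45.2 and 55.0 CPM in wild-type, a log2 fold change of 0.11 (standard error 0.13). K14;Nogo-A replicate 1 was again the lowest mutant library and lay under all 3 wild-type libraries. Slc30a1 shares 468 bp of exon with 1700034H15Rik on the other strand. Slc30a5 encodes ZnT5, which loads zinc into the early secretory pathway, where alkaline phosphatases receive it (chromosome 13, 100802648 to 100833427). It had 82.0, 80.2, 68.2 and 72.9 CPM in K14;Nogo-A, against 88.7, 68.4 and 72.5 CPM in wild-type, with a log2 fold change of -0.01 (standard error 0.11). For both exporters the libraries of the genotypes overlapped.

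In all, 3 of the 10 genes did not overlap between the genotypes with K14;Nogo-A higher, against 803 (5.43%) of 14791 genes tested, and 0 of the 10 with K14;Nogo-A lower, against 901 (6.09%). All 10 had passed the filter on low counts. The median log2 fold change was 0.12 over the 10 genes and -0.01 over all genes tested, with 8 of the 10 above 0 and 2 below. Because the genes were selected on this contrast, nothing is read from these counts. At an adjusted p under 0.05 in edgeR's quasi-likelihood test, 0 genes (0%) were higher and 5 genes (0.0338%) were lower in K14;Nogo-A among the 14791. At an unadjusted p under 0.05, 924 genes were higher and 985 lower, and DESeq2 called 148 higher and 169 lower after adjustment.

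The other zinc carriers and metallothioneins were read from a list of 20 genes, of which 15 passed the filter. At the study's thresholds, an unadjusted P up to 0.05 together with a log2 fold change beyond ±0.5, 1 of the 15 was higher and 0 were lower in K14;Nogo-A, against 299 (2.02%) higher and 406 (2.74%) lower among all genes. With edgeR's quasi-likelihood test 0 of the 15 passed after adjustment, and the smallest adjusted p was 0.27. The 1 gene past the thresholds was Slc39a5, which encodes the zinc importer ZIP5. It had 0.923, 0.972, 1.01 and 0.572 CPM in K14;Nogo-A, against 0.525, 0.365 and 0.288 CPM in wild-type, without overlap. On the log2 scale the difference was 1.09 with a standard error of 0.36 and an adjusted p of 0.27 in edgeR, from only 15 to 29 counts in K14;Nogo-A, against 6 to 22 counts in wild-type. It was not tested under a minimum of 50 counts in every library.

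The better expressed carriers of that list stayed near level. Over the 11 genes with a mean of at least 2 CPM the log2 fold changes lay between -0.04 and 0.27. Slc39a7, which releases zinc from the endoplasmic reticulum, had 260 to 271 CPM in K14;Nogo-A, against 228 to 265 CPM in wild-type (log2 fold change 0.08, standard error 0.09). Slc39a6, a plasma membrane importer that pairs with Slc39a10, had 182 to 227 CPM in K14;Nogo-A, against 184 to 217 CPM in wild-type (0.06, standard error 0.10). Slc39a1, another plasma membrane importer, had 93.6 to 116 CPM in K14;Nogo-A, against 102 to 111 CPM in wild-type (0.00, standard error 0.09). Slc30a4, which moves zinc into vesicles and into milk, had 168 to 195 CPM in K14;Nogo-A, against 160 to 200.6 CPM in wild-type (-0.03, standard error 0.10). The libraries of the genotypes overlapped for all 4.

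**Figure D3:**
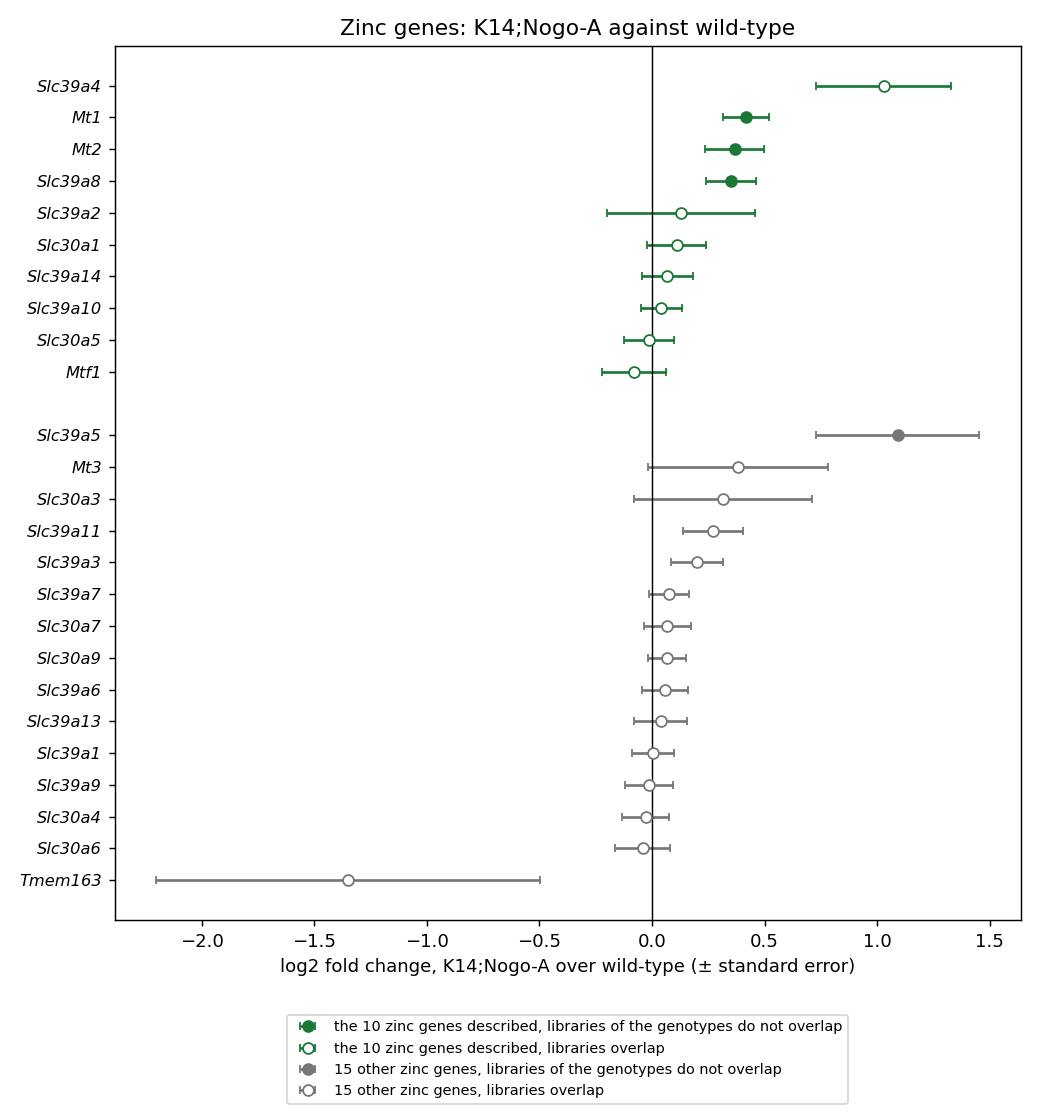
log2 fold change of K14;Nogo-A over wild-type with its standard error (bars) for the 10 zinc genes described (green) and the 15 other zinc genes tested (grey), filled where the libraries of the genotypes do not overlap. Mt1, Mt2 and Slc39a8 lie between 0.35 and 0.42, and Slc39a4 (1.03) and the low gene Slc39a5 (1.09) lie farthest to the right.

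Compared per length, importers stood at the top of the 10 genes and Mtf1, Slc39a4 and Slc39a2 at the bottom. Over the 7 libraries and per kb of all annotated exons, Slc39a8 had 40.0 ± 6.37 CPM per kb and Slc39a10 37.6 ± 2.34 CPM per kb (SD, n = 7), and their ranges overlapped. Mt2 (22.2 ± 3.48), Mt1 (19.8 ± 3.13) and Slc39a14 (15.1 ± 1.65) came next, each overlapping its neighbour. Below these lay Slc30a5 (10.4 ± 1.05) and Slc30a1 (9.51 ± 1.31), then Mtf1 (1.76 ± 0.223) and Slc39a4 (1.16 ± 0.555), and last Slc39a2 (0.340 ± 0.106). Among 14777 genes with a length, Slc39a8 ranked 1169 and Slc39a2 13156.

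The length used matters for that order. Per kb of the transcript that GENCODE numbers first for each gene, Slc39a8 had 95.7, Slc39a14 75.8, Mt1 44.8, Slc39a10 41.7, Mt2 25.5 and Slc30a5 23.9 CPM per kb. Slc39a14 thus moved above both metallothioneins, since its exons sum to 10550 bp and its first-numbered transcript to 2098 bp. Mt1 moved above Mt2, since its exons sum to 1246 bp and its first-numbered transcript to 549 bp. Under both lengths Slc39a8 was first of the 10 genes, and Mtf1, Slc39a4 and Slc39a2 were the last 3. Mt3, the metallothionein of the brain, was at 1.06 CPM per kb of all exons, and Mt4, that of stratified squamous epithelia, did not pass the filter, with 0 or 1 count in each library.

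**Figure D4:**
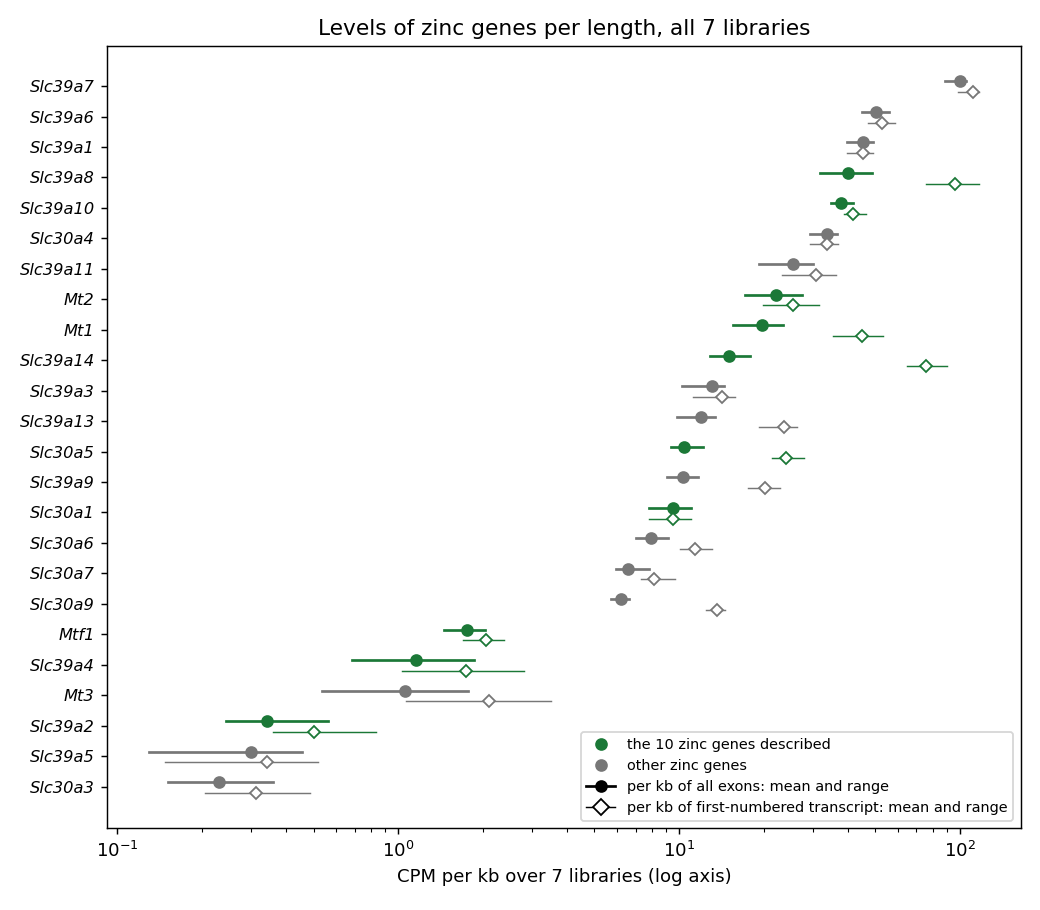
CPM per kb on a log axis for the 10 zinc genes described (green) and 14 other zinc genes (grey), with the mean (marker) and range (line) over all 7 libraries, per kb of all exons (filled circles) and of the first-numbered transcript (open diamonds). Slc39a7 leads under both lengths, Slc39a8 leads the 10 genes, and Slc39a14 moves most between the lengths (15.1 and 75.8 CPM per kb).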

How the data were processed

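RNA of the incisor epithelium of 7 pups was sequenced single-end by the study. The authors deposited raw counts per Ensembl gene, made with bcl2fastq 2.19, Trimmomatic (per the submitters' processing notes; the paper names fastp), STAR 2.7.1 on GRCm38 and featureCounts. The strand setting of the counting was not given in the sources used here, and reads from a gene and an antisense partner may be joined. The labels name a stranded kit and the paper's methods an unstranded one.

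Counts were joined to GENCODE M21 symbols, and 36 of 25700 IDs without a symbol held 0.0348% of counts. A gene entered the test if 50% or more of the libraries of 1 genotype had 10 counts or more, which kept 14791. The test used edgeR 4.0.16 in R 4.3.3, TMM normalization, the robust quasi-likelihood test without covariates, and Benjamini-Hochberg adjustment. Log2 CPM used a prior count of 2. The study's threshold of 0.5 was read as a log2 fold change. The fit was tested on simulated data. Replicate libraries differed by more than sampling noise (lowest chi-square per degree of freedom 16.6). The spread is that between libraries of 1 pup each, in which differences between pups, dissections and library preparations cannot be told apart.

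Genes named are the 10 zinc genes, every other zinc gene past the study's thresholds, the 4 others with the highest CPM per kb, Rtn4, summed marker lists, and the 3 nearest patterns for each of the 3 genes with the largest SD of log2 CPM. One gene that this rule takes is not reported here. Ambn, Mt3 and Mt4 values were added after they were seen. The members and lists were chosen with earlier results of these data known. Alternatives were 10 other settings and each of 7 libraries left out. Comparison within libraries with and without Y-linked RNA, and lengths of the first-numbered transcript, were added after seeing the data. A planned comparison of protein sequences was not made.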

Additional observations from a re-analysis of the deposited data

Results flagged for a closer look

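Among 25 zinc genes tested, 3 had 1 of the 4 K14;Nogo-A libraries far from the others, where chance flags about 1 in 20 groups. The flag was a gap to the nearest library of more than 0.829 of the range. Slc39a4, with replicate 1 apart, fell just short of it at 0.825. Slc30a7, which moves zinc into the Golgi, had 87.1 CPM in replicate 2, above 69.7 to 72.2 CPM in the other 3. Slc39a9, a Golgi zinc carrier, had 119 CPM in replicate 2, above 99.2 to 102 CPM in the other 3. Slc39a3, a plasma membrane importer, had 49.5 CPM in replicate 1, below 57.1 to 58.3 CPM in the other 3.

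The genotype difference took opposite signs within the libraries with Y-linked RNA (K14;Nogo-A replicate 1 against wild-type 3 and 8) and within those without (K14;Nogo-A 2, 7 and 10 against wild-type 9) for 4 of the 25 genes, with no overlap in either. The gap between the log2 differences (with minus without) was -1.40 for Slc39a4, -0.22 for Slc39a10, 1.74 for Slc30a3, a vesicular carrier of low level here, and 0.49 for Slc39a13. These gaps were not tested, since each rests on 1 library in either arm. With so few libraries, opposite signs without overlap arise easily by chance. The share of all genes with this pattern was not counted, so nothing is read from the count of 4.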

How the results depend on the processing

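The log2 fold changes of Mt1 and Mt2 stayed positive under all 17 alternatives, at 0.38 to 0.47 for Mt1 and 0.24 to 0.45 for Mt2. With each library left out in turn Slc39a8 ranged from 0.29 to 0.42 and Slc39a4 from 0.90 to 1.26. With the mesenchymal markers as a covariate, Slc39a8 reversed to -0.33, Slc39a4 was -0.93, Slc30a1 -0.51, Slc39a10 -0.37, Mtf1 -0.35, Slc39a14 -0.29 and Slc39a2 1.15. Slc39a5, at 0.74, then missed the study's P threshold, with an unadjusted p of 0.53 in edgeR's quasi-likelihood test. The cause of these shifts was not tested, and they are point values without standard errors. The mesenchymal list was itself lower in K14;Nogo-A (median log2 fold change -0.57), so the covariate and the genotype vary in part together. The 3 genes without overlap stayed 3 under other scalings and thinning, and were 3 to 4 with a library left out.

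Genes higher at adjusted p under 0.05 numbered 148 with DESeq2, 58 with the likelihood-ratio test, 2 with the mesenchyme covariate, 1 without a filter and 0 to 97 with a library left out, against 0. Genes lower numbered 169, 108, 0 and 20 under the same settings, 9 with a Y-linked covariate and 0 to 124 with a library left out, against 5. Among the libraries left out, the highest of these counts came without K14;Nogo-A replicate 1. With a library left out, genes higher at the study's thresholds ranged from 146 (without wild-type replicate 8) to 542 (without wild-type replicate 9) and genes lower from 240 (without wild-type replicate 8) to 545 (without K14;Nogo-A replicate 1), and over the other settings genes lower ranged from 254 at a minimum of 50 counts in every library to 600 with the mesenchyme covariate. Other zinc genes higher numbered 0 at that minimum, where Slc39a5 was not tested. Other zinc genes lower numbered 1 with the likelihood-ratio test, 1 with limma-voom and 0 to 1 with a library left out. That gene was Tmem163, at 0 to 13 counts per library. With the mesenchyme covariate Tmem163 was instead the 1 other zinc gene past the thresholds as higher.

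No paired analysis was made, because the replicate numbers name single pups and no pairing of pups across the genotypes was given. Depth limits Slc39a2, Slc39a4 and Slc39a5, whose counts are low, and with 3 and 4 pups small differences were not detectable.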
